A study of Homo sapiens with 12 samples.

Results

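The miRNA cargo of extracellular vesicles from Hutu80 was set against the mean of that from MDST8 and Car-1. The comparison took 6 of the series' 12 libraries, chosen by the cell line named in the labels, with 2 libraries for each of the 3 lines. The other 3 lines, HT55, SW1116 and RCM-1, had no weight in it, though their libraries helped to estimate the spread between replicates. Hutu80 is an established line from a carcinoma of the duodenum, while MDST8 came from a colon cancer and Car-1 from a rectal cancer. The labels nonetheless give colorectal cancer as the cell type of all 6 lines, and they name no genotype, drug or time for any of them. The medium, DMEM/F12 with penicillin/streptomycin, held fetal bovine serum for every line, so serum vesicles could be present in every group. Vesicles were enriched by ultrafiltration and size-exclusion chromatography, RNA was extracted with a serum and plasma kit, and libraries were made with IsoSeek, a low-input small RNA protocol that tags molecules with identifiers. The series describes 3 lines of consensus molecular subtype 2 and 3 of subtype 4, but no label used here ties a line to a subtype. Each line stands for 1 tumour, so no result here separates duodenal from colorectal origin.

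Total counts were 71831 and 100531 in the Hutu80 libraries, 339853 and 306811 in MDST8, and 172774 and 137766 in Car-1, so Hutu80 was the shallowest of the 3 lines. A single count was worth 13.9 and 9.95 CPM (counts divided by the library total, on the usual common scale) before TMM scaling in the Hutu80 libraries. Positions are on GRCh38. Levels are CPM after trimmed-mean (TMM) scaling, given for replicate 1 and then replicate 2 of each line. Differences are log2 values ± standard error (SE), computed as Hutu80 minus the mean of the other pair of lines, and a miRNA is called at an adjusted p below 0.05 in edgeR's quasi-likelihood test with Benjamini-Hochberg adjustment. No label tells whether a line's libraries were made from different cultures, so the p-values rest on a spread that may be technical only. Over 318 tested miRNAs the Hutu80 libraries had a Spearman correlation of 0.935 with each other, 0.825 to 0.871 with Car-1 libraries and 0.717 to 0.758 with MDST8 libraries, a description across miRNAs that share library and depth.

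A miRNA is cut from the 2 arms of an RNA hairpin, and its seed, bases 2 to 8 from the 5′ end, sets most of its pairing with messenger RNAs. miRNAs with the same seed form families, and hairpins that lie next to each other are often transcribed as 1 cluster. Cells load part of their miRNAs into vesicles, so a vesicle profile reflects the cell of origin only in part. In tumours of the gut, the miR-17-92 cluster and its relatives are known to favour growth, the miR-200 family keeps cells epithelial, miR-29 represses collagen genes and miR-146a restrains NF-kB signalling.

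The miRNAs that the comparison turns on are shown first, with the seed in capitals and the sequences taken from RefSeq (GRCh38.p14), which matched 286 of the 318 tested names. The first set holds miRNAs that were higher in Hutu80 vesicles than in the mean of MDST8 and Car-1, though not all were called against each line alone. In it miR-30a-5p, miR-30c-5p and miR-30e-5p share a seed, as do miR-20b-5p and miR-106a-5p, and miR-363-3p and miR-92a-3p.
miR-30a-5p: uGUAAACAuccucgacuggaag
miR-30c-5p: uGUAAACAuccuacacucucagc
miR-30e-5p: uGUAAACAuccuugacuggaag
miR-30a-3p: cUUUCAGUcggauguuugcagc
miR-20b-5p: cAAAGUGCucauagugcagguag
miR-106a-5p: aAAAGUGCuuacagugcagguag
miR-363-3p: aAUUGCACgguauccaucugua
miR-92a-3p: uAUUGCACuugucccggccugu
miR-92a-1-5p: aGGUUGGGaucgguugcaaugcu
miR-137-3p: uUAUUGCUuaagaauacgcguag
miR-2682-5p: cAGGCAGUgacuguucagacguc
miR-1262: aUGGGUGAauuuguagaaggau
miR-532-5p: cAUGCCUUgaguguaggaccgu
miR-99a-5p: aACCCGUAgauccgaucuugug

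The second set holds miRNAs that were lower than in that mean. Of these, miR-200b-3p and miR-205-5p were called higher than in MDST8 and lower than in Car-1. miR-146a-5p and the miR-29 family were called against MDST8 and not against Car-1. The members of the miR-29 family share their seed, and miR-100-5p differs from miR-99a-5p, which went the other way, by the single substitution A16U (counted from the 5′ end, with the base of miR-100-5p first).
miR-100-5p: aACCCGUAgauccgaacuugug
miR-29a-3p: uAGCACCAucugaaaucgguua
miR-29b-3p: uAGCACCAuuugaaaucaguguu
miR-29c-3p: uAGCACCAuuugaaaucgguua
miR-152-3p: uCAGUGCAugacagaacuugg
miR-181a-2-3p: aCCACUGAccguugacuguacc
miR-146a-5p: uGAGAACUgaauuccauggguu
miR-200b-3p: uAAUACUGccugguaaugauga
miR-205-5p: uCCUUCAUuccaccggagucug

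Of the 318 tested miRNAs, 56 were higher (17.6%) and 41 lower (12.9%) in Hutu80 than in the mean of MDST8 and Car-1, 97 in all (30.5%), and 123 had an unadjusted p below 0.05. The median difference of the 56 was 1.91 and that of the 41 was -1.42, beside 0.21 over all tested miRNAs. Both Hutu80 libraries lay above all 4 others for 58 miRNAs (18.2%) and below them for 38 (11.9%). Against MDST8 alone, 82 miRNAs were higher (25.8%) and 55 lower (17.3%), 43.1% in all. Against Car-1 alone 31 were higher (9.75%) and 27 lower (8.49%), 18.2% in all. These pair comparisons share the Hutu80 libraries, so they are not independent of each other. Of the 56 higher miRNAs, 18 were called against both lines, 30 against MDST8 only, 7 against Car-1 only and 1 against neither. Of the 41 lower ones, 9 were called lower against both lines, 21 against MDST8 only and 9 against Car-1 only, while 2 were lower against Car-1 and higher against MDST8.

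**Figure D1:**
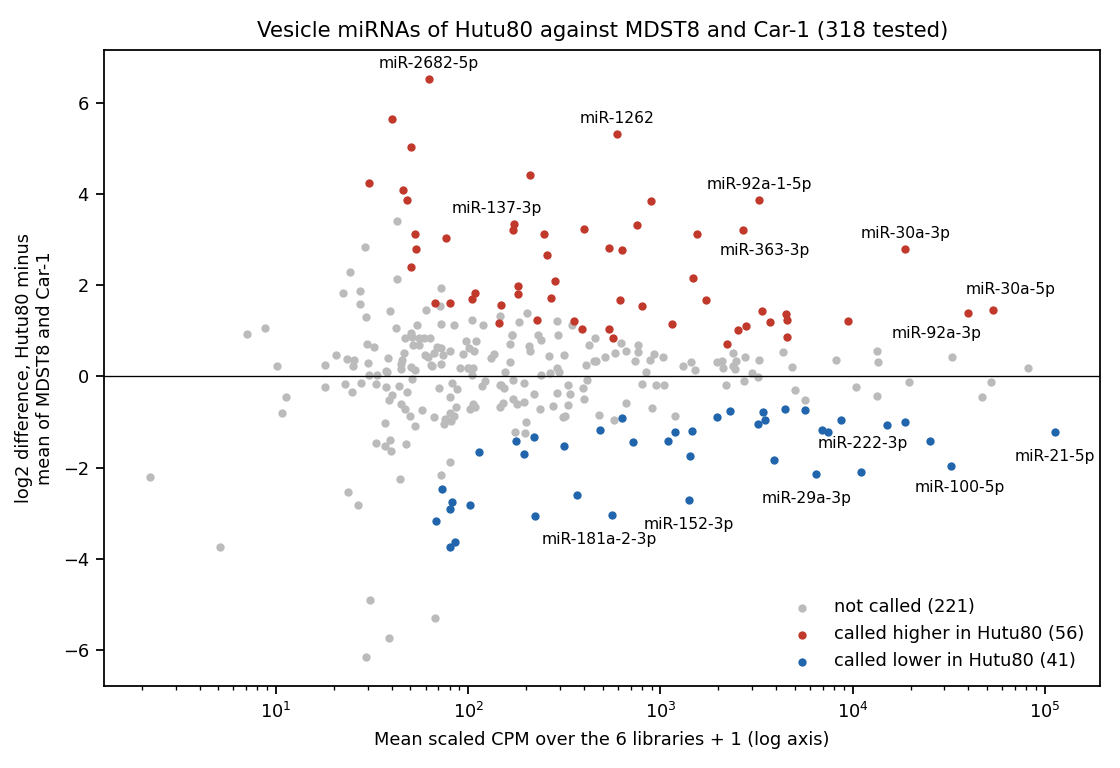
Each point is 1 of the 318 tested miRNAs, with its mean scaled CPM over the 6 libraries plus 1 on a log axis and its log2 difference between Hutu80 and the mean of MDST8 and Car-1 on the y axis. The 56 called higher are red, the 41 called lower blue and the rest grey. miR-30a-3p and miR-92a-1-5p stand out among abundant miRNAs on the higher side, and miR-100-5p and miR-29a-3p on the lower side.

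How many miRNAs lay on each side changed with the miRNAs tested and, against MDST8, with the scaling. Against the mean, RLE size factors gave 53 higher and 45 lower and library totals 56 and 35. Without the filter on low counts, which tests 1223 miRNAs and also shifts the scaling, the comparison gave 30 higher and 61 lower (33.0% of calls higher, beside 57.7% with the filter), and the median of the 318 miRNAs moved from 0.21 to -0.30. Without the 10 most abundant miRNAs it gave 41 higher and 50 lower (45.1%), with a median of -0.03. The pair comparisons moved too, to 40 higher and 65 lower against MDST8 without the filter (38.1%), 53 and 65 without the 10 (44.9%), and 12 and 37 against Car-1 without the filter (24.5%). With library totals as the only scaling the split went to 101 higher and 34 lower against MDST8 (74.8% of calls higher, beside 59.9%) and to 23 higher and 32 lower against Car-1 (41.8%, beside 53.4%). Limma-trend on the deposited log2 values gave 98 and 36 against MDST8 (73.1%) and 23 and 37 against Car-1 (38.3%). The count of 56 fell to 36 without Hutu80 replicate 1, 30 without Hutu80 replicate 2 and 36 without Car-1 replicate 2, and those of the pair comparisons are given with the limits. Differences are therefore read here beside the median of all tested miRNAs. Every call named below was also refitted with each of the 12 libraries left out, and under the other settings. A library or setting that ended it is named with the adjusted p, unless refits are said not to be given. Those settings include DESeq2, limma-voom, limma-trend, testing without any filter, and keeping only miRNAs with 10 CPM or more in 2 libraries (the 10 CPM filter). Of 66 named and called miRNAs, 40 were called in all 12 fits with a library left out.

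The miRNAs called against both MDST8 and Car-1 in all 12 of those fits were 3 higher ones, miR-1262, miR-30a-3p and miR-532-5p, and 4 lower ones, miR-100-5p, miR-152-3p, miR-181a-2-3p and miR-30d-5p. They passed against both lines under the 10 other settings too. miR-1262, from an intron of WLS, which encodes a carrier of Wnt proteins (chromosome 1, 68183518 to 68183610, minus strand), was at 1258 and 2133 CPM in Hutu80, 38.1 and 40.8 in MDST8 and 28.4 and 65 in Car-1. Both Hutu80 libraries were far above all others, also above the 17.4 to 47.3 CPM of HT55, SW1116 and RCM-1. Its difference was 5.30 ± 0.41 (SE, adjusted p = 8.56e-10), or 5.41 ± 0.54 against MDST8 and 5.20 ± 0.55 against Car-1. miR-30a-3p was at 41737 and 45086 CPM in Hutu80, 5534 and 4287 in MDST8 and 9419.5 and 6529.7 in Car-1. Both Hutu80 libraries lay above all 4 others, and the difference was 2.79 ± 0.24 (adjusted p = 2.7e-09). miR-181a-2-3p, the less abundant arm of a miR-181 hairpin, was at 76.6 and 109 CPM in Hutu80, 937 and 945 in MDST8 and 650.2 and 645 in Car-1. Hutu80 lay below both lines, which were close to each other, and miR-181a-2-3p fell by 3.05 ± 0.43 (adjusted p = 6.94e-06).

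**Figure D2:**
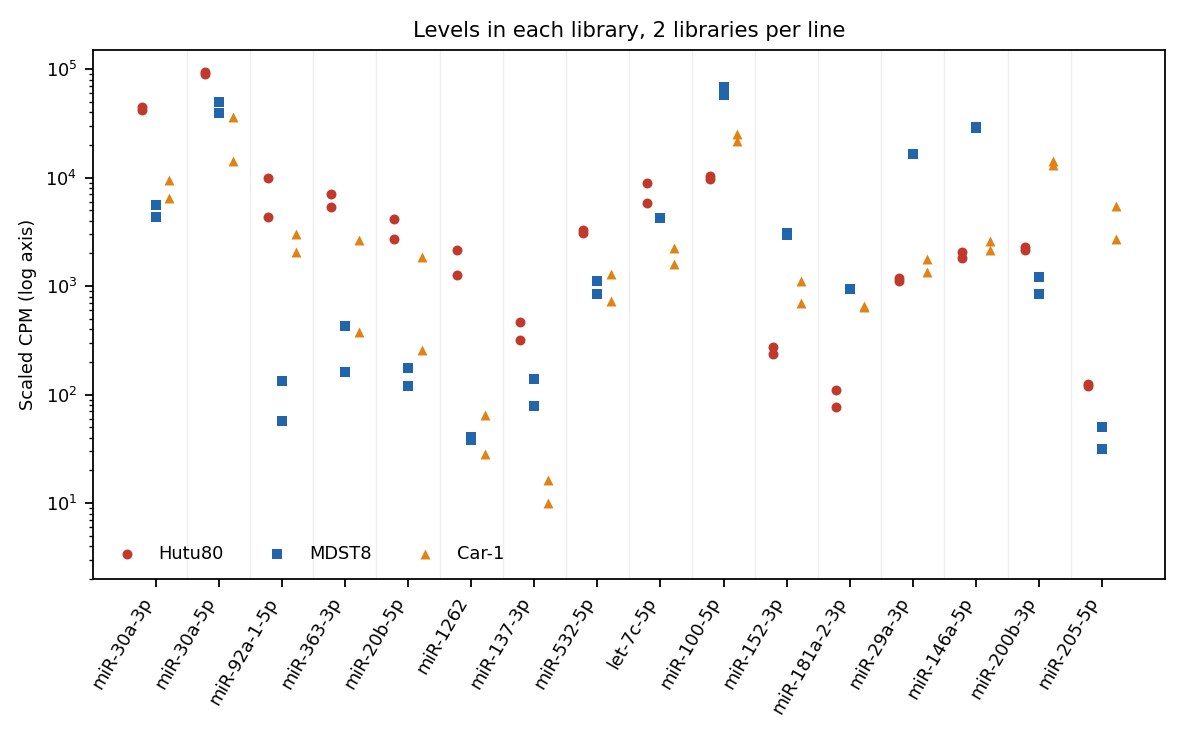
Scaled CPM (log axis) of 16 miRNAs named in the text, with 1 point per library, 2 libraries per line, for Hutu80 (circles), MDST8 (squares) and Car-1 (triangles). miR-1262 at 1258 and 2133 CPM in Hutu80 lies above all 4 other libraries, while miR-100-5p and miR-152-3p lie below them. miR-200b-3p and miR-205-5p lie between the lines.

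The miR-30 family was the group with the most abundant rise. Of its 9 tested members 7 were higher and 1 lower, beside 17.6% and 12.9% of all tested miRNAs. The family median was 1.44, beside 0.21 over all tested miRNAs. The family comes from 3 loci and is known for keeping epithelial cells differentiated. miR-30a-5p, the most abundant miRNA of Hutu80 vesicles with 12.04% and 10.6% of counts, was at 94579 and 89390.4 CPM in Hutu80, 49959 and 39099 in MDST8 and 35813 and 14209 in Car-1. Hutu80 was above all 4 other libraries, Car-1 replicate 2 being the lowest, and the difference was 1.46 ± 0.28 (adjusted p = 0.000364). Both arms of miR-30a come from chromosome 6 (71403551 to 71403621, minus strand, intron of LINC00472), and the hairpin of miR-30c-2 lies 26.5 kb away in the same gene. miR-30c-2-3p was at 2571 and 3166 CPM in Hutu80, 317 and 364 in MDST8 and 1646 and 785 in Car-1, again highest in both Hutu80 libraries (2.15 ± 0.31, adjusted p = 7.7e-06). On chromosome 1 the hairpins of miR-30e and miR-30c-1 lie in an intron of NFYC, which encodes a subunit of a CCAAT-binding transcription factor (40754355 to 40757372, plus strand). miR-30e-3p was at 6411 and 5115 CPM in Hutu80, 2918 and 2541 in MDST8 and 1759.6 and 1529.9 in Car-1, with no overlap between Hutu80 and the others (1.44 ± 0.24, adjusted p = 6.97e-05). Both arms of miR-30e nearly match the more abundant arms of miR-30a in sequence, and an exchange of counts between them was not tested. miR-30c-5p, which both loci can give, was 1.19 ± 0.27 higher (adjusted p = 0.0013, or 0.0752 without Hutu80 replicate 2 and 0.125 with no filter on low counts). miR-30e-5p was 1.01 ± 0.27 higher (adjusted p = 0.00551, or 0.516 without Hutu80 replicate 1, 0.12 without Car-1 replicate 2 and 0.491 with no filter).

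miR-30d-5p and miR-30b-5p, from the remaining locus, have the same seed as the other 5p arms of the family but did not follow them. miR-30d-5p was at 11509 and 11078 CPM in Hutu80, 21478 and 22025 in MDST8 and 25008 and 21114 in Car-1. Hutu80 was below all 4 others, and miR-30d-5p fell by 0.99 ± 0.24 (adjusted p = 0.00256). miR-30d-3p went up, by 3.20 ± 0.58 (adjusted p = 0.000175), from levels of 66.7 and 28.3 CPM in MDST8 and 40.6 and 45 in Car-1 to 459 and 378 in Hutu80. It nearly matches the far more abundant miR-30a-3p in sequence, and for each 100 counts of miR-30a-3p there were 1.10 and 0.838 of miR-30d-3p in Hutu80, 1.20 and 0.659 in MDST8 and 0.431 and 0.689 in Car-1. The ratio overlapped between Hutu80 and MDST8 and was higher in both Hutu80 libraries than in both Car-1 libraries. Whether reads of miR-30a-3p were counted as miR-30d-3p was not tested. miR-30b-5p was at 372 and 252 CPM in Hutu80, 727 and 599.9 in MDST8 and 499.8 and 420.0 in Car-1, lowest in Hutu80, and was not called (adjusted p = 0.0998).

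All listed members of the miR-106a-363 cluster on chromosome X were higher in Hutu80. It is a relative of the growth-promoting miR-17-92 cluster, and its 6 hairpins lie within 134169378 to 134170278 on the minus strand, in exons of the non-coding gene AC002407.1. These 4 members had a median of 3.17, and by position 8 of the 9 tested arms that these hairpins can give were higher, beside 17.6% of all tested miRNAs. Of the 9, miR-92a-3p and miR-19b-3p can also come from chromosome 13, and miR-19b-3p was the one not called. miR-20b-5p was at 2713 and 4191 CPM in Hutu80, 175 and 119 in MDST8 and 1845 and 260.0 in Car-1. Both Hutu80 libraries exceeded the others, but Car-1 replicate 1 lay close to them and Car-1 replicate 2 close to MDST8. The difference was 3.13 ± 0.54 (adjusted p = 0.00059), and 1.71 ± 0.65 against Car-1 alone (adjusted p = 0.0901). miR-363-3p was at 5394 and 7022 CPM in Hutu80, 432 and 160.2 in MDST8 and 2686 and 380.0 in Car-1 and was 3.20 ± 0.69 higher (adjusted p = 0.00736). That call ended without Hutu80 replicate 1 (adjusted p = 0.0634), Hutu80 replicate 2 (0.0869) or MDST8 replicate 2 (0.0653), and with no filter (0.153). miR-106a-5p was at 416 and 672 CPM in Hutu80, 28.6 and 47.1 in MDST8 and 333 and 45 in Car-1, and was 2.67 ± 0.56 higher (adjusted p = 0.000715). It differs by 1 base from a miRNA of the chromosome 13 cluster, and an exchange of counts was not tested. The Car-1 libraries differed from each other 7.10-fold in miR-20b-5p, 7.07-fold in miR-363-3p and 7.41-fold in miR-106a-5p. None of these 3 was called against Car-1 in the comparison of all libraries, and without Car-1 replicate 1 all 3 were (adjusted p = 3.11e-07, 1.09e-08 and 0.00903). With limma-voom all 3 were called against Car-1 too (0.00714, 0.00401 and 0.0354), as were miR-363-3p with limma-trend (0.0355) and miR-106a-5p without MDST8 replicate 2 (0.0415).

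Other arms of the chromosome X cluster had few counts in MDST8, so levels are given without a fitted difference where a line had at most 3 counts. miR-20b-3p was at 547 and 1218 CPM in Hutu80, 44.4 and 15.7 in MDST8 and 475 and 105 in Car-1, above all others in both Hutu80 libraries (3.23 ± 0.54, adjusted p = 6.62e-05). miR-18b-5p was at 164 and 75.6 CPM in Hutu80, 6.35 and 0 in MDST8 and 24.4 and 10.00 in Car-1 (adjusted p = 0.00288, or 0.184 without Hutu80 replicate 1 and 0.083 without Car-1 replicate 2). Its 24 Hutu80 counts against 2 in MDST8 gave a ratio of 45.0 (95% counting interval 11.2 to 393). The interval covers counting error only. miR-363-5p was at 54.7 and 185 CPM in Hutu80, 3.17 and 0 in MDST8 and 118 and 95 in Car-1, so that Hutu80 and Car-1 overlapped. Its call (adjusted p = 0.0125) ended without Hutu80 replicate 2 (0.485), MDST8 replicate 2 (0.0516), Car-1 replicate 1 (0.0878) or Car-1 replicate 2 (0.0894), and with no filter (0.101), DESeq2 (0.0645) or limma-trend (0.0744).

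On chromosome 13, 2 of 8 tested members of the miR-17-92 cluster were called, both higher, beside 17.6% called higher among all tested miRNAs. The cluster median was 0.61. Both Hutu80 libraries lay above all 4 others for 6 of the 8, beside 18.2% of all tested miRNAs. The 2 called miRNAs come from the miR-92a-1 hairpin (chromosome 13, 91351314 to 91351391, plus strand, exon of MIR17HG). miR-92a-3p, which the miR-92a-2 hairpin on chromosome X can also give, was at 59023 and 71450.1 CPM in Hutu80, 16738 and 16537 in MDST8 and 40628 and 34123 in Car-1. It was highest in Hutu80 and lowest in MDST8, without overlap, and was 1.39 ± 0.23 higher (adjusted p = 6.66e-05). miR-92a-1-5p is the opposite arm and belongs to this hairpin alone. It was at 4321 and 9936 CPM in Hutu80, 133 and 56.5 in MDST8 and 2056 and 3029.8 in Car-1, and was 3.86 ± 0.33 higher (adjusted p = 2.7e-09). Hutu80 and Car-1 were both far above MDST8 here. miR-92a-2-5p, the matching arm on chromosome X, was at 777 and 1671 CPM in Hutu80, 9.52 and 18.8 in MDST8 and 1052 and 995 in Car-1. Hutu80 and Car-1 overlapped, and the call (3.32 ± 0.45, adjusted p = 5.17e-06) came from the contrast with MDST8.

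A pair of hairpins in the non-coding gene MIR137HG on chromosome 1 gave miRNAs with higher levels in both Hutu80 libraries than in the 4 others. miR-137-3p, known from neurons, comes from 98046070 to 98046171 (minus strand, exon), and miR-2682 lies 718 bases from it. miR-137-3p was at 470.4 and 319 CPM in Hutu80, 139.7 and 78.5 in MDST8 and 16.3 and 10.00 in Car-1. Hutu80 lay above MDST8 and MDST8 above Car-1, and the difference was 3.34 ± 0.61 (adjusted p = 0.000175). Against MDST8 alone the call (adjusted p = 0.0341) ended without any 1 of the 6 Hutu80, MDST8 and Car-1 libraries or without HT55 replicate 2, with adjusted p up to 0.398 without Hutu80 replicate 1. It also ended with no filter (0.351), the 10 CPM filter (0.0682), DESeq2 (0.0823), limma-trend (0.133) or without the 10 most abundant miRNAs (0.0784). miR-2682-5p was at 186 and 168 CPM in Hutu80, 0 and 0 in MDST8 and 8.13 and 5.00 in Car-1 (adjusted p = 6.97e-05). Its 37 Hutu80 counts against 0 in MDST8 put it at least 46.3-fold higher. This takes 3 counts over the MDST8 libraries as the floor and the 37 as exact. Against 3 counts in Car-1 the ratio was 22.2 (95% counting interval 7.04 to 113). The call of miR-2682-5p against Car-1 alone (adjusted p = 0.00594) ended without Hutu80 replicate 1 (0.0991) or 2 (0.0757) or Car-1 replicate 1 (0.142) or 2 (0.194), and with no filter (0.0627). In the neural list of 6 tested miRNAs, 2 were higher, miR-137-3p and miR-9-3p, beside 17.6% of all tested miRNAs. The list median was 0.32 (-0.19 with no filter on low counts). miR-9-3p was 1.61 ± 0.51 higher (adjusted p = 0.0198), a call that stood in 5 of the 12 fits and ended without Hutu80 replicate 1 (0.242) or 2 (0.17), MDST8 replicate 2 (0.0516), Car-1 replicate 1 (0.111) or 2 (0.11), HT55 replicate 2 (0.0596) or SW1116 replicate 1 (0.0569). It ended as well with no filter (0.4), the 10 CPM filter (0.0526), DESeq2 (0.0585) or without the 10 most abundant miRNAs (0.0503). The neuronal marker miR-124-3p had 0 counts in all 6 libraries.

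Several less abundant miRNAs had some of the largest fitted differences, an order that leans on low counts in MDST8. miR-3180-5p, which 3 near-identical hairpins on chromosome 16 can give, was at 164 and 118 CPM in Hutu80, 3.17 and 3.14 in MDST8 and 4.06 and 5.00 in Car-1 (adjusted p = 0.000188). Its 29 counts in Hutu80 against 2 in each other line gave ratios of 54.4 (95% counting interval 13.8 to 470.5) to MDST8 and 26.1 (6.61 to 226) to Car-1. miR-3180-3p was at 109 and 109 CPM in Hutu80, 0 and 0 in MDST8 and 12.2 and 5.00 in Car-1 (adjusted p = 0.000667). With 3 counts as the floor and its Hutu80 count taken as exact, it was at least 28.8-fold higher than MDST8. miR-128-1-5p, from an intron of R3HDM1 on chromosome 2, was at 350.1 and 613 CPM in Hutu80, 6.35 and 0 in MDST8 and 142 and 135 in Car-1 (adjusted p = 6.94e-06). The opposite arm, miR-128-3p, which a hairpin on chromosome 3 can also give, was at 733 and 1016 CPM in Hutu80. It overlapped with both other lines at 787 and 757 and 1040.3 and 715. miR-365a-5p, from an intron of MIR193BHG on chromosome 16, was at 1663 and 1848 CPM in Hutu80, 19 and 12.6 in MDST8 and 967 and 875 in Car-1 (3.84 ± 0.48, adjusted p = 2.75e-06). Its opposite arm miR-365a-3p has the same sequence as miR-365b-3p, from chromosome 17. miR-365a-3p was at 87.5 and 126 CPM in Hutu80, 82.5 and 132 in MDST8 and 89.4 and 75 in Car-1, so only the 5p arm separated MDST8 from the other pair. miR-1303 was at 1159.7 and 1226 CPM in Hutu80, 85.7 and 91.1 in MDST8 and 378 and 275 in Car-1, without overlap (2.81 ± 0.35, adjusted p = 2.51e-06). miR-219a-1-3p was at 175 and 50.4 CPM in Hutu80, 0 and 3.14 in MDST8 and 20.3 and 20 in Car-1, and its call (adjusted p = 0.00179) ended without Hutu80 replicate 1 (0.251). miR-345-3p was at 219 and 319 CPM in Hutu80, 3.17 and 0 in MDST8 and 545 and 390.0 in Car-1, where the difference from the mean (adjusted p = 0.000561) rested on MDST8 alone, since both Car-1 libraries were above both Hutu80 libraries.

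A second group on chromosome X, the hairpins within CLCN5, a chloride channel gene, had 4 of 8 tested members higher and none lower. This stands beside 17.6% and 12.9% of all tested miRNAs, and the group median was 1.503. miR-532-5p was at 3107 and 3267 CPM in Hutu80, 1124 and 851 in MDST8 and 1300.4 and 730.0 in Car-1. The Hutu80 libraries were close to each other and above all others, and the difference was 1.67 ± 0.27 (adjusted p = 3.67e-05), with nearly the same size against MDST8 (1.69 ± 0.33) and Car-1 (1.65 ± 0.33). miR-500a-3p was at 558 and 445 CPM in Hutu80, 149 and 160.2 in MDST8 and 167 and 130.0 in Car-1, again without overlap (1.72 ± 0.38, adjusted p = 0.0011, or 0.107 without Hutu80 replicate 1 and 0.0816 with no filter). miR-501-3p was at 153 and 353 CPM in Hutu80, 38.1 and 75.4 in MDST8 and 154 and 105 in Car-1, where Hutu80 replicate 1 fell just below Car-1 replicate 1. Its call (adjusted p = 0.0137) ended without Hutu80 replicate 2 (0.695), MDST8 replicate 1 (0.0535), Car-1 replicate 1 (0.0741) or 2 (0.104) or HT55 replicate 2 (0.0558), and with no filter (0.339). miR-660-5p was 1.23 ± 0.38 higher (adjusted p = 0.0185), and this ended without Hutu80 replicate 1 (0.335) or 2 (0.209), MDST8 replicate 2 (0.0777), Car-1 replicate 1 (0.163) or 2 (0.176) or HT55 replicate 2 (0.101), and with no filter (0.678), the 10 CPM filter (0.0778), DESeq2 (0.052) or without the 10 most abundant miRNAs (0.0667).

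Members of the paralogous clusters on chromosomes 21 and 11 did not all differ from the other lines in the same direction. Both pair a miR-99 or miR-100 hairpin with a let-7 and a miR-125b hairpin, families known in blood and epithelial differentiation. Of 6 tested members of these clusters 2 were higher and 2 lower, beside 17.6% and 12.9% of all tested miRNAs. Their median of 0.63 turned to -1.08 without Hutu80 replicate 2 and to -0.43 with limma-trend. From chromosome 21, where miR-99a and let-7c lie 658 bases apart in an intron of MIR99AHG (16539089 to 16539911, plus strand), let-7c-5p was at 5787 and 8962 CPM in Hutu80, 4238 and 4281 in MDST8 and 1605 and 2259.9 in Car-1. It was highest in Hutu80 (1.36 ± 0.27, adjusted p = 0.000431, or 0.127 without Hutu80 replicate 2). miR-99a-5p was at 5481 and 8869 CPM in Hutu80, 4194 and 4793 in MDST8 and 3348 and 750.0 in Car-1, with Hutu80 on top and Car-1 replicate 2 far below the rest. Its call (1.24 ± 0.40, adjusted p = 0.0296) stood in 3 of the 12 fits, those without MDST8 replicate 2, Car-1 replicate 1 or SW1116 replicate 1, and reached an adjusted p of 0.441 without Hutu80 replicate 2. It also ended with library totals (0.05, just over the threshold), no filter (0.101), the 10 CPM filter (0.0881), only the 6 libraries compared (0.0682) or without the 10 most abundant miRNAs (0.106). From chromosome 11, miR-100-5p (chromosome 11, 122152229 to 122152308, minus strand, intron of MIR100HG) was at 9682 and 10314 CPM in Hutu80, 58138 and 68738 in MDST8 and 25414 and 21924 in Car-1. Hutu80 was the lowest line without overlap, and miR-100-5p fell by 1.95 ± 0.26 (adjusted p = 5.17e-06). miR-100-5p and miR-99a-5p differ by 1 base, and an exchange of counts between them was not tested. miR-125b-5p, which hairpins on both chromosomes can give, was at 799 and 1949 CPM in Hutu80, 5337 and 7903 in MDST8 and 3702 and 3695 in Car-1 and fell by 1.84 ± 0.32 (adjusted p = 0.000117). The arm that marks its chromosome 21 hairpin, miR-125b-2-3p, was at 317 and 764 CPM in Hutu80, 200.0 and 273 in MDST8 and 248 and 280.0 in Car-1 and was not called (adjusted p = 0.0767, or 0.0492 without MDST8 replicate 2 and 0.0357 with only the 6 libraries compared). The arm that marks the chromosome 11 hairpin, miR-125b-1-3p, overlapped with the other lines and was not called (0.13 ± 0.89, adjusted p = 0.911). Of the chromosome 11 arms named, only miR-100-5p was thus called lower without a second source on chromosome 21.

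The third cluster of this kind, on chromosome 19 in an intron of SPACA6 (51692612 to 51693339, plus strand), had 1 higher and 2 lower of 4 tested members. This stands beside 17.6% and 12.9% of all tested miRNAs, and the cluster median was -0.44. miR-125a-5p was at 645 and 622 CPM in Hutu80, 1222 and 1768 in MDST8 and 1378 and 1529.9 in Car-1, lowest in Hutu80 without overlap, and fell by 1.22 ± 0.34 (adjusted p = 0.00878). let-7e-5p fell by 0.78 ± 0.28 (adjusted p = 0.0342, or 0.086 without Hutu80 replicate 1, 0.0632 with limma-voom and 0.0502 with only the 6 libraries compared). miR-99b-3p was at 1214 and 1571 CPM in Hutu80, 295 and 355 in MDST8 and 947 and 450.0 in Car-1 and was 1.55 ± 0.37 higher (adjusted p = 0.00256, or 0.092 without Hutu80 replicate 2 and 0.0508 with no filter).

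Among the lower miRNAs, the miR-29 family, which represses collagens and other matrix genes, had 3 of 4 tested members called lower, beside 12.9% of all tested miRNAs. The family median was -1.92. miR-29a-3p (chromosome 7, 130876747 to 130876810, minus strand) was at 1192 and 1125 CPM in Hutu80, 16455 and 16572 in MDST8 and 1764 and 1359.9 in Car-1. MDST8 stood far above both other lines, while Hutu80 lay just below Car-1, and miR-29a-3p fell by 2.13 ± 0.30 (adjusted p = 6.94e-06). Against Car-1 alone it was not called (adjusted p = 0.44), except with no filter on low counts (0.043). miR-29b-3p was at 32.8 and 75.6 CPM in Hutu80, 543 and 364 in MDST8 and 77.2 and 70 in Car-1 and overlapped with Car-1 (adjusted p = 0.0202, or 0.134 without Hutu80 replicate 1 and 0.0934 with limma-voom). miR-29c-3p had 2 counts in Hutu80 and 125 in MDST8, a ratio of MDST8 to Hutu80 of 16.7 (95% counting interval 4.52 to 139). Its call (adjusted p = 0.0388) ended without Hutu80 replicate 2 (0.313) or MDST8 replicate 1 (0.0508), and with DESeq2 (0.0572).

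miR-152-3p, a member of the miR-148 seed family that lies in an intron of COPZ2 (chromosome 17, 48037161 to 48037247, minus strand), was lower than in both lines. It was at 274 and 235 CPM in Hutu80, 3099 and 2975 in MDST8 and 699 and 1125 in Car-1. Both Hutu80 libraries were below all others, and miR-152-3p fell by 2.71 ± 0.35 (adjusted p = 2.75e-06). The other tested miRNAs with its seed, miR-148a-3p and miR-148b-3p, were not called against the mean. miR-148a-3p was called higher than in MDST8 and miR-148b-3p higher than in Car-1, opposite to miR-152-3p. Refits of these calls are not given. miR-455-3p, from an intron of the collagen gene COL27A1 on chromosome 9, was at 32.8 and 67.2 CPM in Hutu80, 654 and 1247 in MDST8 and 114 and 95 in Car-1. It was lowest in Hutu80, with most of the distance to MDST8, and fell by 2.61 ± 0.55 (adjusted p = 0.000813).

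Of 5 tested members of the miR-181 family, 3 were lower, beside 12.9% of all tested miRNAs, and the family median was -0.94. miR-181a-5p, abundant in lymphoid cells, was at 2855 and 3032 CPM in Hutu80, 17811 and 15639 in MDST8 and 3263 and 2279.9 in Car-1. Only MDST8 was set apart, and miR-181a-5p fell by 1.21 ± 0.25 (adjusted p = 0.000755). miR-181b-5p fell by 0.94 ± 0.26 (adjusted p = 0.00789, or 0.0605 without Hutu80 replicate 1). The third was miR-181a-2-3p, given above, which was lower than both lines and is made only by the chromosome 9 hairpin (chromosome 9, 124692442 to 124692551, plus strand). miR-181d-5p, which shares the seed of miR-181a-5p and miR-181b-5p, went the other way with a difference of 0.66. Both Hutu80 libraries were above all 4 others in miR-181d-5p, but it was not called.

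The list of 12 tested miRNAs linked to inflammation and the mesenchymal state had 4 members lower than the mean and none higher. This stands beside 12.9% of all tested miRNAs lower and 17.6% higher, and the list median was -0.47. Against MDST8 alone 6 were lower (17.3% of all tested) and 1 higher (25.8%), miR-155-5p. Against Car-1 alone none was lower (8.49%) and 2 were higher (9.75%), miR-221-5p and miR-31-5p. Refits of the miR-155-5p and miR-221-5p calls are not given. miR-146b-5p, which shares the seed of miR-146a-5p, was not called (0.37 ± 0.31, adjusted p = 0.408). miR-146a-5p, induced by NF-kB, was at 2079 and 1806 CPM in Hutu80, 28392 and 29299 in MDST8 and 2133 and 2619.9 in Car-1. Hutu80 was close to Car-1 and far below MDST8, and miR-146a-5p fell by 2.09 ± 0.30 (adjusted p = 6.94e-06). miR-21-5p, raised in many tumours, was at 57557 and 57651 CPM in Hutu80, 216698 and 147209 in MDST8 and 130090.0 and 66646 in Car-1, lowest in Hutu80 though near Car-1 replicate 2, and fell by 1.22 ± 0.29 (adjusted p = 0.00229). miR-222-3p was at 10710.5 and 10532 CPM in Hutu80, 41447 and 54522 in MDST8 and 14649.5 and 19184 in Car-1 and fell by 1.42 ± 0.26 (adjusted p = 0.000175). miR-221-3p, its neighbour on chromosome X and a repressor of the cell cycle inhibitor p27, fell by 1.07 ± 0.23 (adjusted p = 0.00101). None of these 4 was called against Car-1 alone, where the adjusted p was 0.095 for miR-21-5p, 0.104 for miR-222-3p, 0.676 for miR-221-3p and 0.686 for miR-146a-5p. miR-21-5p passed against Car-1 without Car-1 replicate 2 (0.000124) or HT55 replicate 2 (0.00835), and miR-222-3p without Car-1 replicate 1 (0.00353) or HT55 replicate 2 (0.012). Both passed too with library totals (0.0131 and 0.0164), no filter (3.36e-06 and 0.000111), the 10 CPM filter (0.0156 and 0.0458), DESeq2 (0.0456 and 0.0447) and limma-trend (0.0477 and 0.0241).

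In the miR-23, miR-27 and miR-24 clusters on chromosomes 9 and 19, 4 of 8 tested members were lower and none higher. This stands beside 12.9% of all tested miRNAs lower and 17.6% higher, and the median was -0.83. miR-24-3p, which both clusters can give, was at 579.8 and 983 CPM in Hutu80, 1981 and 2023 in MDST8 and 1906 and 1319.9 in Car-1. Hutu80 was below both lines, and miR-24-3p fell by 1.19 ± 0.30 (adjusted p = 0.00406). miR-27a-3p, of the chromosome 19 cluster, was at 394 and 629.9 CPM in Hutu80, 1651 and 1602 in MDST8 and 1564 and 750.0 in Car-1 and fell by 1.41 ± 0.35 (adjusted p = 0.00331), with Hutu80 below all others. The chromosome 9 members miR-23b-3p and miR-27b-3p were called lower against Car-1 and not against MDST8. miR-23b-3p was at 1116 and 1537 CPM in Hutu80, 1194 and 1065 in MDST8 and 3649 and 5239.7 in Car-1 and fell by 0.75 ± 0.27 (adjusted p = 0.0348, or 0.134 without Hutu80 replicate 1, 0.0612 without MDST8 replicate 1, 0.0512 with library totals, 0.0574 with limma-voom and 0.0518 with only the 6 libraries compared). miR-27b-3p fell by 0.90 ± 0.31 (adjusted p = 0.0288, or 0.0661 without Hutu80 replicate 2, 0.0612 without MDST8 replicate 1 and 0.0563 with limma-voom).

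A group of epithelial miRNAs placed Hutu80 between the lines, so that the contrast with the mean gave only part of the picture. Of 7 tested members of the miR-200 family, 3 were lower in the contrast with the mean, with a median of -0.99, while 2 were higher against MDST8 and 6 lower against Car-1. The shares over all tested miRNAs were 12.9% lower than the mean, 25.8% higher than MDST8 and 8.49% lower than Car-1. miR-200b-3p was at 2155 and 2301 CPM in Hutu80, 1200.1 and 842 in MDST8 and 13089 and 14119 in Car-1. It was 1.13 ± 0.30 higher than in MDST8 (adjusted p = 0.00474) and fell by 2.61 ± 0.31 against Car-1 (adjusted p = 1.3e-06). The former call ended without Hutu80 replicate 1 (0.129) or 2 (0.169) or MDST8 replicate 2 (0.126), and with no filter (0.173). The call of miR-200b-3p against the mean (adjusted p = 0.0348) ended without Hutu80 replicate 1 (0.0665) or 2 (0.0534) or MDST8 replicate 1 (0.0973), and with limma-voom (0.0697). miR-200a-3p was at 175 and 176 CPM in Hutu80, 133 and 109.9 in MDST8 and 2589 and 1105 in Car-1, near MDST8 and far below Car-1, and fell by 1.43 ± 0.38 (adjusted p = 0.0059, or 0.0899 with limma-voom). miR-200a-5p had 1 count in Hutu80 against 105 in Car-1, a ratio of Car-1 to Hutu80 of 58.3 (95% counting interval 10.2 to 2324), and its call (adjusted p = 0.00757) ended without Hutu80 replicate 1 (0.0589). miR-200c-3p was at 8030.2 and 6559.6 CPM in Hutu80, 4153 and 3056 in MDST8 and 14089 and 26209 in Car-1. It was higher than in MDST8 (adjusted p = 0.0147) and lower than in Car-1 (adjusted p = 0.00191). The call against MDST8 ended without Hutu80 replicate 1 (0.411) or 2 (0.142), MDST8 replicate 2 (0.152) or HT55 replicate 2 (0.0598), and with no filter (0.261).

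miR-205-5p, typical of squamous epithelium, was at 120.3 and 126 CPM in Hutu80, 50.8 and 31.4 in MDST8 and 5502 and 2715 in Car-1. Car-1 stood far above, Hutu80 lay above MDST8, and miR-205-5p fell by 1.74 ± 0.44 against the mean (adjusted p = 0.00406, or 0.0782 with limma-voom). Against MDST8 alone it was 1.57 ± 0.53 higher (adjusted p = 0.0212), a call that ended without Hutu80 replicate 1 (0.136) or 2 (0.174), MDST8 replicate 2 (0.152) or either Car-1 replicate (0.0728 each), and with no filter (0.225), limma-voom (0.127) or without the 10 most abundant miRNAs (0.0595). miR-31-5p, often raised in colorectal tumours, ran the other way at 427 and 655 CPM in Hutu80, 1699 and 1586 in MDST8 and 236 and 220.0 in Car-1. It fell by 1.59 ± 0.38 against MDST8 (adjusted p = 0.00211) and was 1.25 ± 0.40 higher than in Car-1 (adjusted p = 0.0279), the latter ending without any 1 of the 6 libraries compared or without HT55 replicate 2, with adjusted p up to 0.447 without Hutu80 replicate 2. It ended also with library totals (0.0941), no filter (0.8), the 10 CPM filter (0.0837), limma-trend (0.116) or without the 10 most abundant miRNAs (0.0549). miR-5100 was at 241 and 311 CPM in Hutu80, 22.2 and 22 in MDST8 and 1455 and 675 in Car-1, higher than in MDST8 (adjusted p = 0.00129) and lower than in Car-1 (adjusted p = 0.0433), the latter ending without either Hutu80, SW1116 or RCM-1 library, MDST8 replicate 1 or Car-1 replicate 1, with adjusted p up to 0.213 without Hutu80 replicate 1, and with library totals (0.0796), limma-voom (0.0615) or limma-trend (0.13). Neither miR-31-5p nor miR-5100 was called against the mean, and neither was miR-200c-3p, except without Car-1 replicate 1 (0.0136) or with no filter (0.0127).

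The lower side also held miRNAs that Hutu80 vesicles nearly lacked. miR-135b-5p, often raised in colorectal tumours, had 3 counts in Hutu80 against 81 in Car-1, a ratio of Car-1 to Hutu80 of 15.0 (95% counting interval 4.95 to 74.2). Its call (adjusted p = 0.0185) ended without Hutu80 replicate 1 (0.0794) or 2 (0.0661) or MDST8 replicate 1 (0.0597), and with limma-voom (0.0573). miR-3178 had 1 count against 89 in Car-1, a ratio of 49.4 (8.64 to 1973), with adjusted p = 0.0198, or 0.12 without Hutu80 replicate 1 and 0.0894 without Car-1 replicate 2. miR-760 had 3 counts against 69 in Car-1, a ratio of 12.8 (4.19 to 63.4), with adjusted p = 0.0348, a call that ended without Hutu80 replicate 1 (0.161) or 2 (0.139), MDST8 replicate 1 (0.0509) or Car-1 replicate 2 (0.0836), and with DESeq2 (0.0572) or limma-voom (0.0507). miR-4497 was at 21.9 and 16.8 CPM in Hutu80, 85.7 and 254 in MDST8 and 77.2 and 150.0 in Car-1 and fell by 2.83 ± 0.93 (adjusted p = 0.0236, or 0.0874 without Hutu80 replicate 2 and 0.0728 with limma-voom).

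Of the let-7 family outside these clusters, 1 of 10 tested members was higher and 1 lower, beside 17.6% and 12.9% of all tested miRNAs. The family median was -0.06. let-7i-5p was at 5076 and 4443 CPM in Hutu80, 16462 and 15388 in MDST8 and 5254 and 5299.7 in Car-1 and fell by 0.95 ± 0.24 (adjusted p = 0.00406), with only MDST8 set apart. let-7d-3p was 0.85 ± 0.31 higher (adjusted p = 0.0415), a call that stood only in the fit without SW1116 replicate 1 and reached an adjusted p of 0.516 without Hutu80 replicate 1. It ended too with RLE size factors (0.0762), no filter (1), the 10 CPM filter (0.152), DESeq2 (0.0884), limma-voom (0.0708) or without the 10 most abundant miRNAs (0.177). Among 6 tested miRNAs embedded in the HOX gene clusters, which pattern the body axis, miR-10b-5p alone was called, beside 30.5% of all tested miRNAs. It was at 2910.1 and 2343 CPM in Hutu80, 17658 and 14295 in MDST8 and 1999 and 2339.9 in Car-1 and fell by 1.17 ± 0.24 (adjusted p = 0.000755), and the list median was -0.24 (0.0728 without MDST8 replicate 2). miR-10a-5p, with 11.5% and 10.2% of Hutu80 counts, was at 90301 and 85770.4 CPM in Hutu80, 103449 and 82115 in MDST8 and 56549.7 and 71371 in Car-1, with Hutu80 inside the range of MDST8.

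Of all tested miRNAs, 30.5% were called against the mean of the other lines and 25.8% were higher against MDST8 alone. In the lists for intestinal epithelium and for foregut, liver and pancreas, which leave out the miR-200 family, no tested miRNA was called against the mean. This held for all 5 tested miRNAs of intestinal epithelium, whose median was 0.46 (-0.0502 with no filter on low counts, -0.0821 without Car-1 replicate 1), and 3 of them were higher against MDST8 alone. miR-194-5p, typical of gut epithelium, was at 470.4 and 445 CPM in Hutu80, 339.7 and 314 in MDST8 and 435 and 460.0 in Car-1. It held too for 4 tested miRNAs of foregut, liver and pancreas (median 0.77), of which 3 were higher against MDST8 alone. Counts of miR-217-5p, a pancreatic miRNA, were 0 and 14 in Hutu80, 0 and 0 in MDST8 and 26 and 5 in Car-1. The 9 gut epithelial markers, miR-200 members included, were all counted in each line, and took 1.32% to 1.59% of counts in Hutu80, 0.525% to 0.634% in MDST8 and 4.57% to 6.39% in Car-1. Among these markers, miR-200a-3p and miR-200b-3p were called lower against the mean, as given above.

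Markers of cells that a culture of tumour cells should not hold were also counted. The 7 blood cell markers, which serum in the medium could carry, took 0.421% to 0.564% of counts in Hutu80, 0.186% to 0.209% in MDST8 and 0.552% to 0.656% in Car-1. Beside 30.5% of all tested miRNAs, none of 8 tested blood miRNAs was called (median 0.22, but -0.29 with no filter on low counts and -0.18 without Car-1 replicate 1). Against MDST8 alone 1 was higher, and miR-144-3p was at 0 counts in both MDST8 libraries. The 8 markers of stroma, muscle and endothelium took 0.0855% to 0.0961% in Hutu80, 0.0480% to 0.0531% in MDST8 and 0.120% to 0.125% in Car-1. None of 6 tested members was called (median 0.37, but -0.14 with no filter and -0.20 without Hutu80 replicate 1), and miR-214-3p was at 0 in all 6 libraries. Both marker groups were lowest in MDST8, and their part in the differences from MDST8 was not tested.

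**Figure D3:**
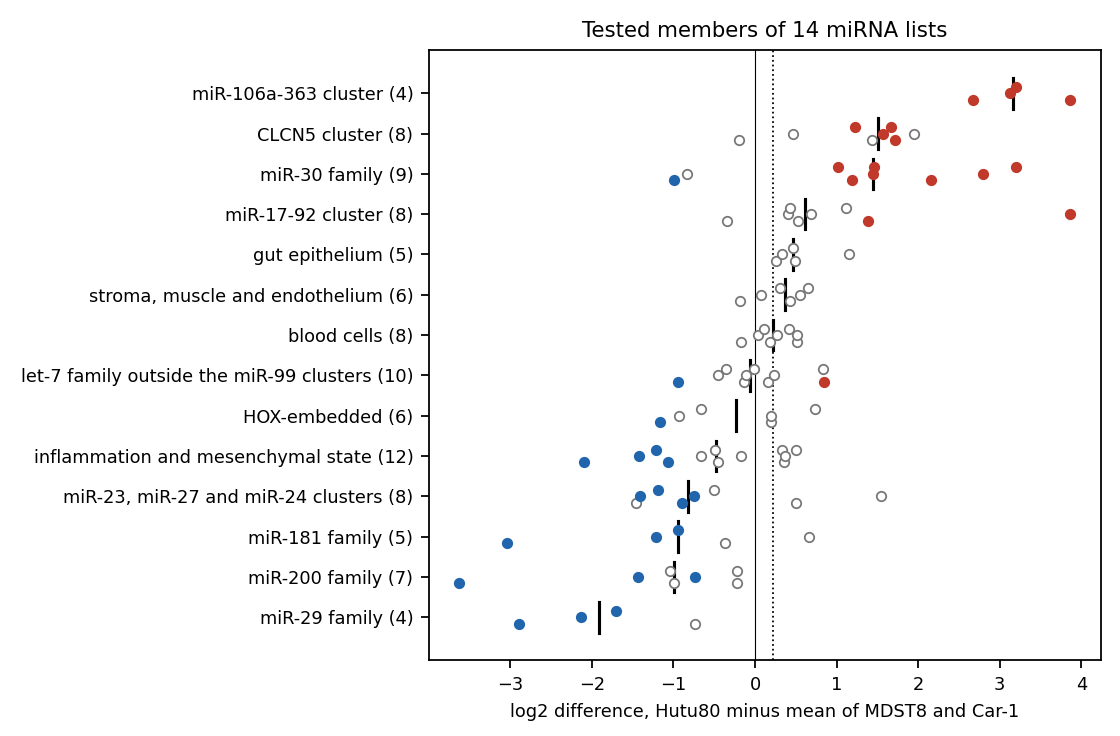
Log2 difference between Hutu80 and the mean of MDST8 and Car-1 for each tested member of 14 lists, with the number of tested members in brackets. Filled points are called higher (red) or lower (blue), open points are not called, thick bars are list medians and the dotted line is the median of all tested miRNAs (0.21). All 4 members of the miR-106a-363 list are red, and 3 of 4 of the miR-29 family are blue.

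Hairpins with both arms tested allowed a comparison of the arms. The less abundant arm was set by the mean over the Hutu80, MDST8 and Car-1 libraries, also where the other 3 lines are given. In 58 such hairpins, this arm was higher in Hutu80 in 15 and the more abundant arm in 14, with both higher in 8, beside 17.6% of all tested miRNAs called higher. On the lower side the more abundant arm was called in 12 and the less abundant in 3 (12.9% of all tested miRNAs were called lower), all 3 together with the other arm, and no hairpin had arms called in opposite directions. An arm shared by hairpins was counted for each hairpin, so miR-125b-5p and miR-181a-5p recur among the 12. In the same way miR-92a-3p recurs among the 14 and the 8. The median difference was 0.50 over the less abundant arms and 0.19 over the more abundant ones. The less abundant arm took a median of 16.2% and 17.4% of both arms' counts in Hutu80 and 15.3% and 12.7% in Car-1, against 5.31% and 4.89% in MDST8 and 4.07% to 8.66% in the other 3 lines. Pooled over hairpins without miR-30a, the share was 6.61% and 8.50% in Hutu80, 5.83% and 4.66% in Car-1 and 3.06% and 2.90% in MDST8. Hutu80 and Car-1 thus lay close together in the median and apart from the other 4 lines, and in the pooled share Hutu80 was highest.

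**Figure D4:**
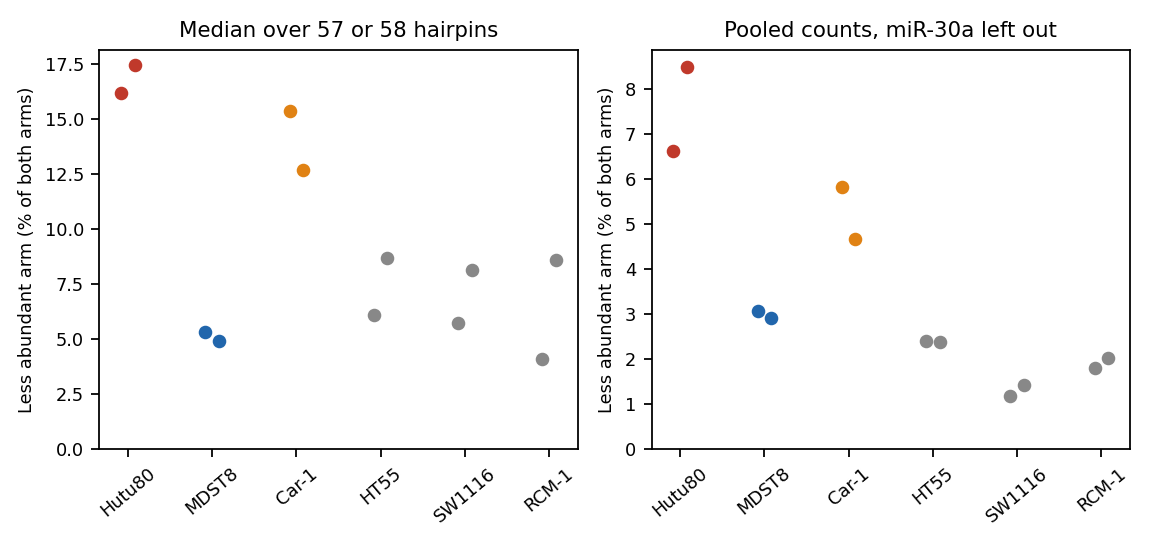
Share of the less abundant arm in the counts of both arms, in percent, with 1 point per library and 2 libraries for each of 6 lines. Which arm was less abundant was set by the mean over the Hutu80, MDST8 and Car-1 libraries. The left panel gives the median over 57 or 58 hairpins and the right panel the share of pooled counts without miR-30a. Hutu80 is at 16.2% and 17.4% in the left panel, and MDST8 at 5.31% and 4.89%.

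Per hairpin, over the 58, the share lay above all 4 MDST8 and Car-1 libraries in 10, below in 8 and overlapped in 40. For the levels of all tested miRNAs, 18.2% lay above and 11.9% below. Examples from both groups follow. For miR-125b-2, the less abundant arm took 28.4% and 28.2% in Hutu80, 3.61% and 3.34% in MDST8 and 6.28% and 7.04% in Car-1, although the shared miR-125b-5p arm also comes from chromosome 11. For miR-128-1 the share was 32.3% and 37.6% in Hutu80, 0.80% and 0% in MDST8 and 12.03% and 15.9% in Car-1. For miR-99b it was 34.3% and 35.5% in Hutu80, 13.5% and 10.1% in MDST8 and 21.5% and 14.3% in Car-1. The reverse held for miR-181a-2, with 2.61% and 3.48% in Hutu80, 5.00% and 5.70% in MDST8 and 16.6% and 22.1% in Car-1. In the miR-365a hairpin the 3p arm took 5.00% and 6.38% in Hutu80 and 8.46% and 7.89% in Car-1, but 81.2% and 91.3% in MDST8. The arms miR-128-3p, miR-181a-5p and miR-365a-3p can also come from hairpins on chromosomes 3, 1 and 17. The shares of miR-128-1, miR-181a-2 and miR-365a therefore do not describe a single hairpin.

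At the limit of detection, 2 miRNAs were counted in both Hutu80 libraries and in none of the 4 others. miR-302a-5p, from a cluster of embryonic stem cells, had 8 and 3 counts. With 3 counts over a line as the floor and the Hutu80 counts taken as exact, it was at least 13.8-fold higher than MDST8. Against Car-1 it was at least 6.61-fold higher. RCM-1 replicate 2 had 1 count of it, and HT55 and SW1116 had 0. miR-1250-5p had 1 and 3 counts, beside 1 each in SW1116 replicate 1 and RCM-1 replicate 2. In the other direction, 18 miRNAs were counted in all 4 MDST8 and Car-1 libraries and were at 0 in both Hutu80 libraries. Among them miR-204-5p, a miRNA of the retina and other epithelia, had 32 and 9 counts in MDST8, at least 3.64-fold higher there, but 1 and 2 in Car-1. miR-135b-3p had 12 and 2 counts in MDST8 and 9 in each Car-1 library. Hutu80 was the shallowest line, so a miRNA at 0 there was not detectable at this depth and is not shown to be absent.

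The sequences of the called miRNAs differed little from the rest. Of those matched to RefSeq, 51 called higher had a median GC content of 50.0% and 37 called lower 47.8%, beside 50.0% for all 286. The median length was 22 bases in each group.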

How the data were processed

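Small RNA libraries of vesicles from 6 cell lines were analysed, 2 per line. The deposited table holds raw counts per mature miRNA for 1636 names, and a second deposited table holds log2 values that equal log2(CPM + 1) of these counts. Per the submitters' processing notes, hg38 was the genome build. Which aligner, counter and miRNA annotation were used, and if identifiers were collapsed, is not stated in the sources used here. Counts of near-identical miRNAs may be shared.

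Counts of all 12 libraries were fitted with edgeR 4.0.16 in R 4.3.3, by cell line, after filtering on low counts by line (318 miRNAs left, 99.7% of counts) and trimmed-mean scaling. Hutu80 was tested against MDST8 and Car-1, each weighted 0.5, and against each alone, with quasi-likelihood tests. The common biological coefficient of variation was 0.304. Each miRNA had 6 residual degrees of freedom, and the robust fit also borrowed information on the spread from the other tested miRNAs. In a test on simulated data of 290 miRNAs, this comparison called 3 of the 16 miRNAs changed 2-fold. It called 14 of the 19 changed 4-fold, 19 of the 20 changed 8-fold, and 0 of the 235 left unchanged. The simulated counts had 1 mean profile for all lines, shifted only in Hutu80, and the same coefficient of variation for every miRNA. Differences among the other lines, and a spread that varies between miRNAs or lines, were not simulated. The result therefore gives no rate of false calls for the real libraries. limma 3.58.1 and DESeq2 1.42.0 served as alternatives, beside other scalings and filters, a replicate block and each library left out. Ratios of low counts have exact 95% intervals, computed with scipy 1.17.1. Intervals cover counting error only. Floors put 3 counts on the side at 0 and take the count of the other side as exact. A fold given as at least some value therefore leaves out the counting error of that other side. Total counts ran from 71831 to 622800 over the 12 libraries, and Hutu80 was the shallowest line compared.

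Members and miRNA lists were chosen with earlier results of these data known. The rule for names took, per direction, up to 12 called miRNAs with the largest fitted difference, at least 100 CPM on the higher side and no overlap between the groups; the 3 most abundant members of each list; the 10 most abundant miRNAs of Hutu80; up to 5 with opposite calls in the pair comparisons; up to 5 counted in Hutu80 alone or in all libraries but Hutu80; and the other arms of the first set. Not all miRNAs that the rule took are described. Other names were chosen after their values were seen, namely let-7d-3p, let-7i-5p, miR-9-3p, miR-19b-3p, miR-24-3p, miR-27a-3p, miR-30b-5p, miR-30d-3p, miR-30c-5p, miR-30c-2-3p, miR-92a-2-5p, miR-99b-3p, both arms of miR-30e and of miR-125b-2, miR-148b-3p, miR-345-3p, miR-501-3p, miR-1303 and the markers listed at 0 or by count. The same holds for miR-125b-1-3p, miR-146b-5p, miR-155-5p, miR-181d-5p and miR-221-5p.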

Additional observations from a re-analysis of the deposited data

How the results depend on the processing

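With no filter on low counts, 30 miRNAs were higher than the mean of MDST8 and Car-1, 40 higher than MDST8 and 12 higher than Car-1, beside 56, 82 and 31. limma-voom called 27 lower against the mean, beside 41. Without the 10 most abundant miRNAs 53 were higher than MDST8, and 34 (library totals) and 36 (limma-trend) were lower than MDST8, beside 55. With each library left out in turn, 30 to 55 were higher and 29 to 58 lower against the mean, 35 to 77 higher and 41 to 74 lower against MDST8, and 16 to 31 higher and 18 to 35 lower against Car-1. The count higher than MDST8 moved to 43 without Hutu80 replicate 1, 35 without Hutu80 replicate 2, 46 without MDST8 replicate 2 and 52 without Car-1 replicate 1. The count higher than Car-1 moved to 20 and 19 without Hutu80 replicates 1 and 2, and to 19 and 16 without Car-1 replicates 1 and 2. A line left with 1 library was assumed to vary like the others, and the cause of these shifts was not tested.

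Some list medians changed sign. With no filter on low counts the median was -0.0502 for gut epithelium, -0.29 for blood cells, -0.14 for stroma, muscle and endothelium, and -0.19 for neural miRNAs. The blood median was -0.0331 without the 10 most abundant miRNAs, and that of the clusters on chromosomes 21 and 11 was -0.43 with limma-trend. With each library left out, the medians ran from -0.0821 (without Car-1 replicate 1) to 0.39 for gut epithelium, from -0.65 to 0.0728 (without MDST8 replicate 2) for HOX-embedded miRNAs, and from -0.18 to 0.42 for blood cells. The blood median was negative without Hutu80 replicate 1, Car-1 replicate 1 or HT55 replicate 2. The range was -0.20 (without Hutu80 replicate 1) to 0.46 for stroma, muscle and endothelium, and -1.08 (without Hutu80 replicate 2) to 1.03 for the clusters on chromosomes 21 and 11. The cause was not tested.

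Same-numbered libraries of different lines are not described as paired, and their deviations correlated at -0.105 to 0.249 over the 15 pairs of lines. A replicate block gave 55 higher and 40 lower against the mean, 84 and 54 against MDST8, and 34 and 28 against Car-1. Among the miRNAs named in the report, it ended the call of miR-99a-5p against the mean (adjusted p = 0.0568). Against Car-1 it ended those of miR-92a-3p (0.0566) and miR-5100 (0.0699), and gave a call to miR-363-3p (0.0228), miR-20b-5p (0.0295), miR-20b-3p (0.0275), miR-128-1-5p (0.0453) and miR-4497 (0.0358). Depth limits low levels most in Hutu80, where 1 count stood for 13.9 and 9.95 CPM.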
